A study of Mus musculus with 16 samples.

Results

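The blood proteins of the complement and coagulation systems are made largely by hepatocytes, and 39 of their genes were followed here in regenerating mouse liver. The list holds procoagulant factors, the contact system, the fibrinogen chains, inhibitors and anticoagulants, fibrinolysis genes, and the components and regulators of complement. A gene was represented by the probe set annotated to it alone, and by the probe set with the highest mean over the 16 arrays where it had several. Of the 39 genes, 36 had such a probe set, and all 36 were among the 13577 genes tested. C3 and Cpb2 were not analysed here, nor was C4b, whose probe set is shared with C4a. Each of the 36 genes had a signal above its array's own median in 16 of 16 arrays. The hepatocyte marker Alb, albumin, read 18701 to 117413.

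Liver was taken from mice of a mixed 129SV/C57BL/6 background after partial hepatectomy, the removal of part of the liver. All samples carry the same genotype label, Metff/ff:ERCre+/+, and fall into 4 arms. MET_FLOX is the control arm; in MET_KO, exon 16 of Met, the receptor for hepatocyte growth factor, was deleted with a tamoxifen-inducible system; MET_FLOX_canertinib and MET_KO_canertinib are the same 2 genotypes on a diet with canertinib, an inhibitor of EGFR, at an aimed 80 mg/kg. The labels call the inhibition systemic, so cells other than hepatocytes may be affected. The study asked what combined loss of MET and EGFR signalling does to regeneration. Each arm has 1 array on each of days 0, 2, 7 and 14, so there are no replicates of an arm on a day; ages are not given, and it is not stated whether an array holds 1 animal or a pool. Differences between arms were therefore measured over the 4 days, and differences between days over the arms, and p-values measure the spread between these single arrays.

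Coagulation is a chain of zymogens that ends in thrombin, which cuts fibrinogen into fibrin; antithrombin, heparin cofactor II and the protein C pathway hold it in check, and plasmin dissolves the clot. Complement is started by antibody complexes, by mannose-binding lectins or by the alternative arm, meets at C3, and ends in the pore of C5 to C9. The liver secretes most of these proteins, and several of them, fibrinogen among them, belong to the acute phase response that follows tissue injury. Many of the promoters concerned are known targets of the hepatocyte factors HNF1 and C/EBP, and acute phase promoters of STAT3 downstream of interleukin 6.

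The arrays fell into 2 sets by their median signal, and the sets cut across the design. The 6 arrays of MET_FLOX and MET_KO on days 0, 2 and 7 had medians of 156 to 189, and the other 10 arrays had medians of 244 to 265. On days 0, 2 and 7 canertinib and array set cannot be told apart, and on day 14 all 4 arms lie in the second set. The ratio of 3′ to 5′ Gapdh signal, a sign of RNA quality, was 0.765 to 0.869 without canertinib and 0.950 to 2.24 with it. Both Met probe sets overlapped between genotypes, with 1041 to 2014 in flox and 982 to 2066 in knockout arrays for the brighter of them; as their position relative to exon 16 is not given here, they do not check the deletion. Single arrays also stood apart for the 36 genes: MET_KO_canertinib on day 14 held the lowest signal of 12 of them and the highest of 5, and MET_KO on day 2 the lowest of 15. Among all genes tested, 11.7% had their lowest and 14.7% their highest signal in the first of these arrays, and 15.1% their lowest in the second. Among the 259 genes at least as bright as the median member (a mean of 13.43 on the log2 scale), the shares were 35.5%, 13.5% and 32.8%.

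Promoters are shown for the 3 fibrinogen genes, whose signals moved together, and for Klkb1 and C9, which had the largest fitted departures below 0 in the MET_KO_canertinib day 14 array. They are from RefSeq on build GRCm38.p6, which holds a promoter for 30 of the 39 genes, and each is written 5′ to 3′ from 250 bases before the annotated start to the base before it. Capitals mark matches to 4 short motifs on either strand: GTTAAT (an HNF1 site), TTGCNNAA (C/EBP), CTGGGA (the type II interleukin 6 element) and TTCNNNGAA (STAT).
Fga, chr3:83025903-83026152, plus strand: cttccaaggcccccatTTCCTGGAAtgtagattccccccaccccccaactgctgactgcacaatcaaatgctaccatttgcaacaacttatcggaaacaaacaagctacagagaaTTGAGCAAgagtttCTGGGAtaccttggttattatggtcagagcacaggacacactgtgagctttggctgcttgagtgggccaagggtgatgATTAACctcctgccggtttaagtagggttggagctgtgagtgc
Fgb, chr3:83049864-83050113, minus strand: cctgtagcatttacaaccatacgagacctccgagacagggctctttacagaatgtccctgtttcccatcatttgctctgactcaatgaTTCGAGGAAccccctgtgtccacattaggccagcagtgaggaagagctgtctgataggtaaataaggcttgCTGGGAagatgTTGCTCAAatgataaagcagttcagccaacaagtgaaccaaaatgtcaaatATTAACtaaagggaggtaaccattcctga
Fgg, chr3:83007474-83007723, plus strand: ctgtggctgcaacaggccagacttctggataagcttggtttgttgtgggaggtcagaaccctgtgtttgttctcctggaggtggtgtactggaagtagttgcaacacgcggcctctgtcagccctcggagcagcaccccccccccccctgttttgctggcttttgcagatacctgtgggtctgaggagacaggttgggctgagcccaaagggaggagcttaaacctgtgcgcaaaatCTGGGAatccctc
Klkb1, chr8:45294836-45295085, minus strand: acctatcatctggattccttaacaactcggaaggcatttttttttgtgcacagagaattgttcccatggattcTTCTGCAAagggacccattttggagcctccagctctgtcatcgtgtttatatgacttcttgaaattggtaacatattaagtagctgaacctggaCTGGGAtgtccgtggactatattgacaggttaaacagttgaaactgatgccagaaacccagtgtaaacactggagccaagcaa
C9, chr15:6445096-6445345, plus strand: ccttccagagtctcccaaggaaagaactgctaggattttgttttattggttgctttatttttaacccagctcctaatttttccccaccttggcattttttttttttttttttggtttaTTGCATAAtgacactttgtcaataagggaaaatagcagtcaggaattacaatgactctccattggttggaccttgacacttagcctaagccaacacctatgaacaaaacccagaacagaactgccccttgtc

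The 3 fibrinogen genes neighbour each other on chromosome 3. Fga and Fgb each held all 4 motifs in the searched window, which runs 50 bases past the start, and no marked match overlapped another. Counted in bases from the start, the Fga matches began at -234 (STAT), -135 (C/EBP), -121 (the interleukin 6 element) and -43 (HNF1). Fgg held the interleukin 6 element alone, at -13. Klkb1 held the C/EBP match and the interleukin 6 element, and C9 the C/EBP match. Over all 32851 promoters of the same length, 7.10% held the HNF1 site, 10.8% the C/EBP match, 31.8% the interleukin 6 element and 8.30% the STAT match. Of the 30 listed genes with a promoter, 9, 9, 16 and 7 did. A match is a run of letters and no measured binding.

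**Figure D1:**
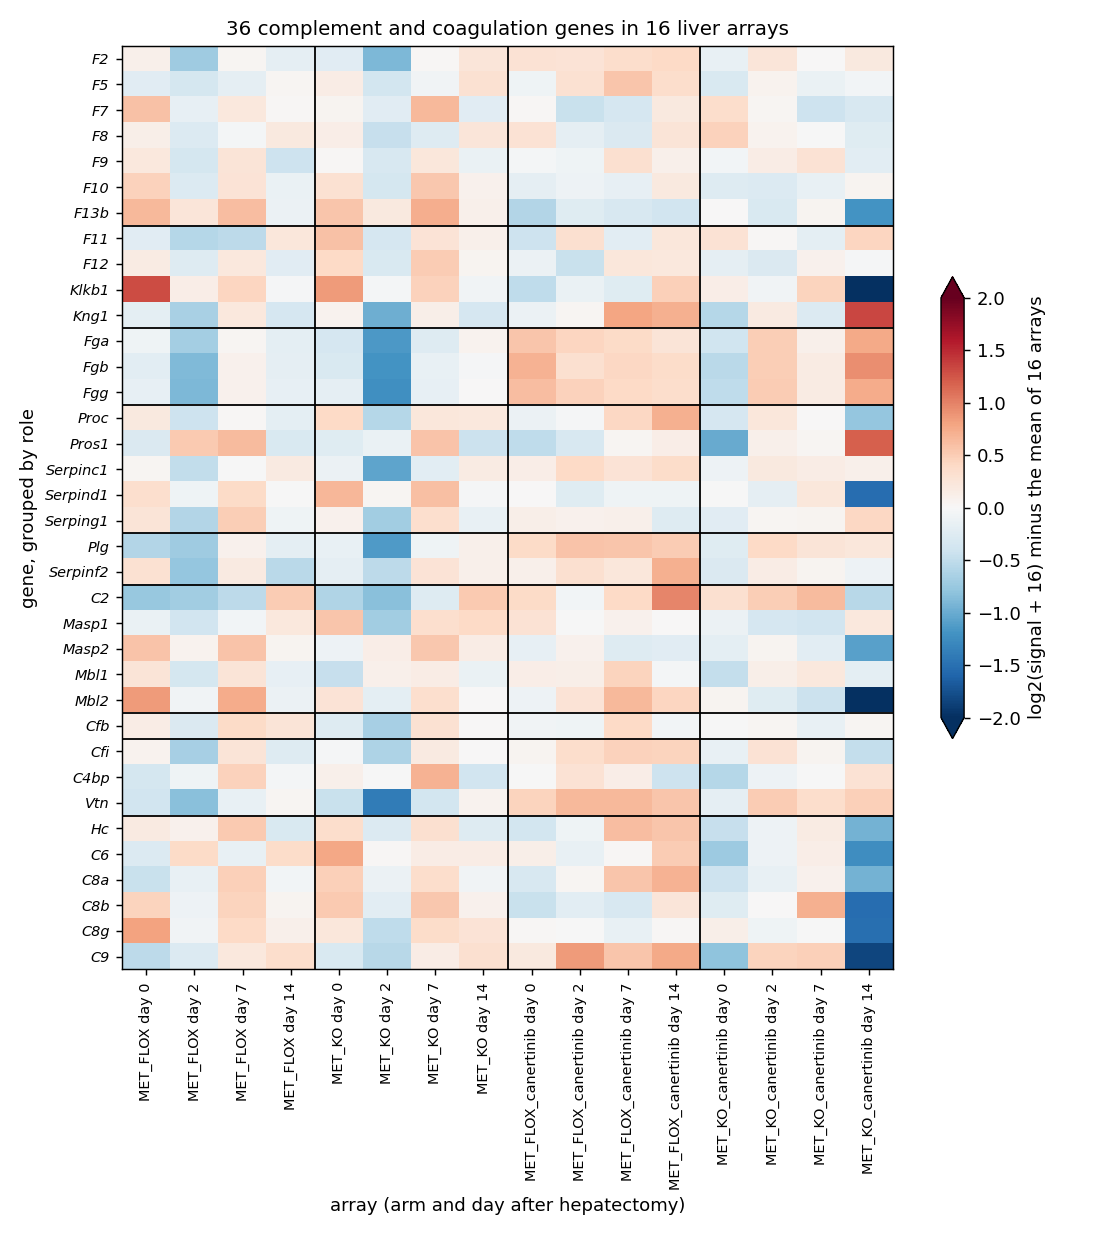
Signal of the 36 genes (rows, grouped by role) in the 16 arrays (columns, by arm and day), as log2(signal + 16) minus the gene's mean over the arrays; colours stop at 2 in either direction. The MET_KO day 2 column is blue for most genes, and the MET_KO_canertinib day 14 column holds both the darkest blue cells (Klkb1, Mbl2) and red cells (Kng1, Pros1, fibrinogen).

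Canertinib arms were first compared with the arms without it, over the 4 days. Of the 36 genes, 6 were higher with canertinib (Fga, Fgb, Fgg, Plg, C2 and Vtn) and 3 lower (F13b, Serpind1 and Masp2), at an adjusted p below 0.05 from limma's moderated fit with Benjamini-Hochberg adjustment over all genes. Among all genes, 24% were called higher and 10.6% lower in the same comparison. The share of the 36 genes called was thus not above that of genes in general. The median log2 difference was 0.05 for the 36 genes and 0.14 for all genes. Scaling mattered: centring each array on its median gave 1 member higher (Vtn) and 13 lower, against an all-gene median of -0.24. Of all 13577 genes, 936 were called higher and 4117 lower in that fit. Quantile normalization gave 4 members higher and 1 lower, against an all-gene median of 0.06. Among all genes it gave 1682 higher and 1208 lower. When a term for the array set was added, which leaves the day 14 difference as the estimate, no member was called, while 4 genes higher and 11 lower were called in all and 6 members had an unadjusted p below 0.05. Leaving out 1 array at a time gave 4 to 10 called genes; 4 remained called without MET_FLOX day 2, MET_KO day 2, MET_FLOX_canertinib day 0 or MET_FLOX_canertinib day 2, and 5 without MET_KO day 7 or MET_KO_canertinib day 2. Without the MET_KO_canertinib day 14 array 10 were called. On days 0, 2 and 7 alone, where canertinib and array set cannot be told apart, 11 were called: the same 9 and, lower, Klkb1 and Pros1. In that fit 4341 of all 13577 genes were called higher and 2064 lower. The share of the 36 genes called was again not above that of genes in general.

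**Figure D2:**
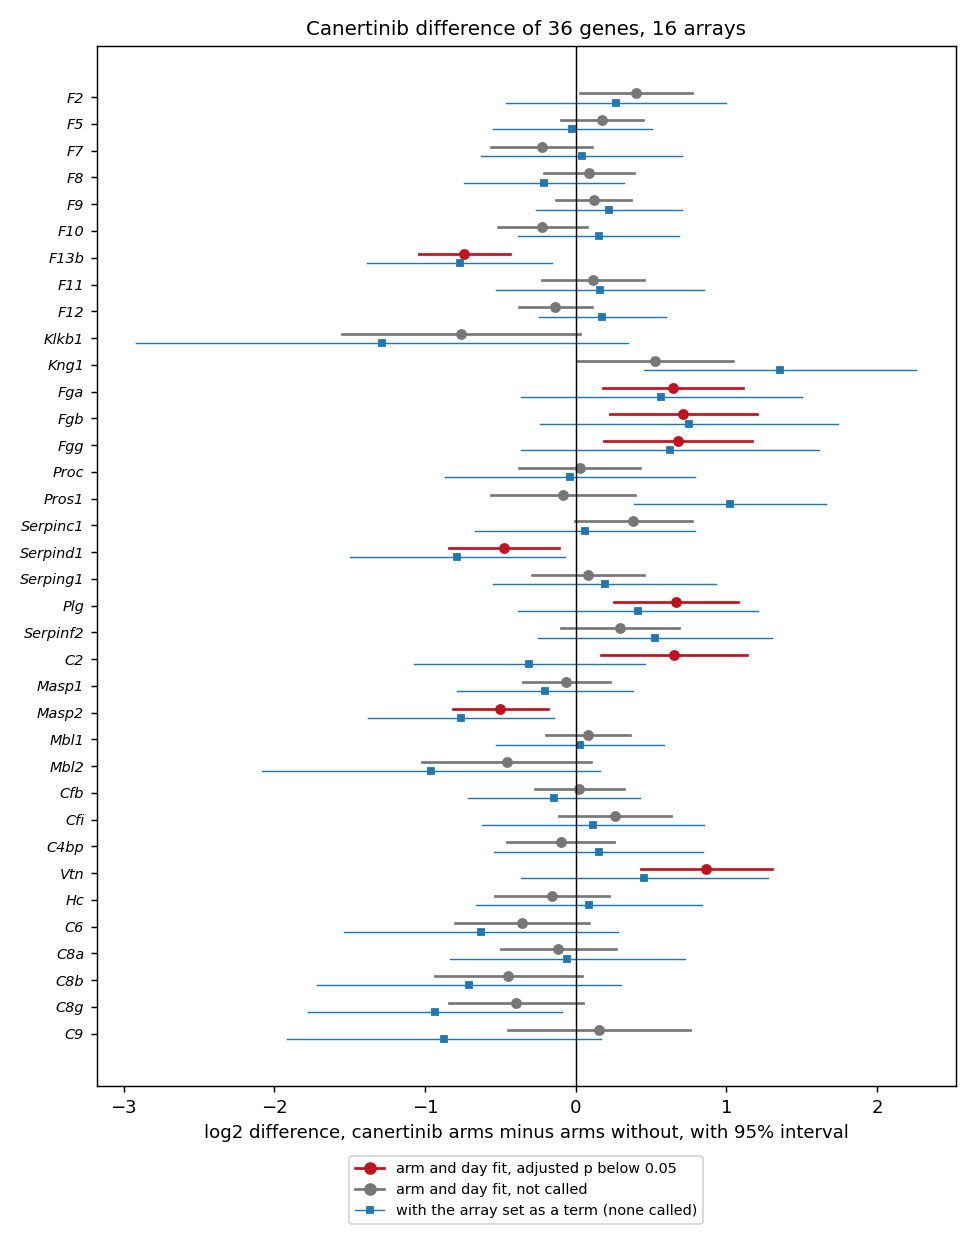
Log2 difference of each of the 36 genes between canertinib arms and arms without it, with 95% intervals, from the fit of arm and day (circles, red where the adjusted p was below 0.05) and after adding a term for array set (blue squares). The 9 red genes are Fga, Fgb, Fgg, Plg, C2 and Vtn to the right of 0 and F13b, Serpind1 and Masp2 to the left; C2 lies on the other side of 0 once that term is added.

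Fibrinogen is built of 3 chains encoded by Fga, Fgb and Fgg, and all 3 were higher in the canertinib arms. On days 0, 2, 7 and 14, the Fgb signal was 45451, 28776, 55914 and 46476 for MET_FLOX and 42946, 23179, 47558 and 52156 for MET_KO. With canertinib it was 85593, 65916, 70804 and 68332 for MET_FLOX_canertinib and 36449, 74029, 59534 and 100662 for MET_KO_canertinib. The lowest readings were the day 2 arrays of both arms without canertinib, and the highest was MET_KO_canertinib on day 14. The diets overlapped: MET_KO_canertinib on day 0 lay below 6 of the 8 arrays without canertinib. Fga read 49390, 32710, 53865 and 45332 for MET_FLOX and 41244, 23436, 43646 and 55052 for MET_KO, and with canertinib 76572, 70546, 68148 and 62393 for MET_FLOX_canertinib and 39635, 73346, 55918 and 87883 for MET_KO_canertinib. Fgg read 45369, 27266, 53861 and 44932 for MET_FLOX and 44465, 21502, 44941 and 50817 for MET_KO, and with canertinib 77687, 69386, 66567 and 64361 for MET_FLOX_canertinib and 35592, 71598, 56814 and 84557 for MET_KO_canertinib. The chains kept close to each other, with Pearson's r of 0.98 to 0.99 between pairs over the 16 arrays, given as a description.

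The log2 difference between canertinib arms and the others was 0.65 for Fga (SE 0.22, adjusted p = 0.0342), 0.71 for Fgb (SE 0.23, adjusted p = 0.0280) and 0.68 for Fgg (SE 0.23, adjusted p = 0.0341), in limma's fit. Each was above 0 on 4 of 4 days. Day 2 gave the largest of the daily differences, 1.38, 1.43 and 1.54, and days 0 and 7 gave 0.23 to 0.35. On day 14, where the 4 arms share an array set, the differences were 0.57, 0.75 and 0.63. The calls rested on single arrays: each of the 3 was lost without MET_FLOX day 2, MET_KO day 2, MET_FLOX_canertinib day 0, MET_FLOX_canertinib day 2 or MET_KO_canertinib day 2, with adjusted p-values up to 0.0851. Fga lost its call without 10 of the 16 arrays in turn (the further 5 being MET_FLOX days 7 and 14, MET_FLOX_canertinib day 7, MET_KO days 0 and 7), Fgb without 5 and Fgg without 7 (also MET_FLOX day 14 and MET_KO day 7), with differences between 0.53 and 0.87. After quantile normalization the 3 differences were -0.08, 0.02 and 0.02, and after median centring 0.27, 0.33 and 0.30, none called; with no filter on low probe sets the adjusted p-values were 0.065, 0.053 and 0.061.

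Acute phase proteins and other secreted hepatocyte proteins were higher along with fibrinogen. Of 11 acute phase genes, 7 were called higher with canertinib and 0 lower, with a median log2 difference of 1.11, among them Hp (haptoglobin, 1.23) and Hpx (hemopexin, 1.11). Of 9 other secreted proteins measured, 6 passed as higher and 1 as lower, around a median of 0.54, and Alb (albumin) differed by 1.23. In the same comparison 24% of all genes were called higher and 10.6% lower. On day 14, in the shared array set, the diets overlapped for Saa1, Saa2, Saa3, Orm1, Orm2, Lcn2 and Crp. They did not overlap that day for Hp, Hpx, Apcs and Itih4. Neutrophil markers moved too: 4 of 5 measured were higher, and their summed signal ranged from 2648 to 43428 with canertinib and from 1610 to 4470 without. The 43428 was MET_KO_canertinib on day 14 alone, with at most 11927 in the other 15 arrays. The part of these genes in the result was not tested. In bulk liver, fewer cells of a type and less RNA per cell cannot be told apart.

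**Figure D3:**
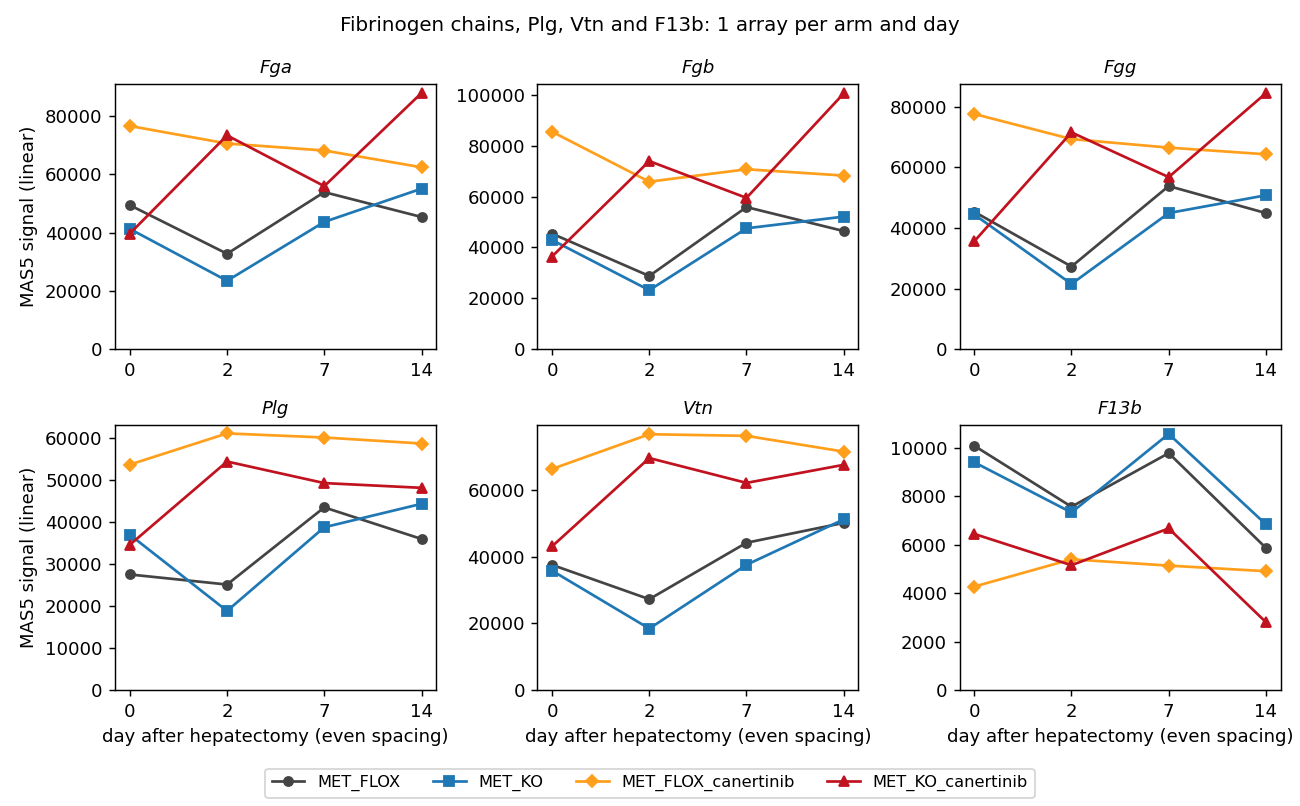
Signal (linear, MAS5) of Fga, Fgb, Fgg, Plg, Vtn and F13b on days 0, 2, 7 and 14 after partial hepatectomy, 1 array per arm and day, with no error bars because there are no replicates. In both arms without canertinib the first 5 genes dip on day 2 (Fgb to 28776 and 23179), and F13b lies lower in the canertinib arms.

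Among the procoagulant factors, F13b, the carrier subunit of the clot-stabilising factor XIII, was lower with canertinib. It read 10097, 7576, 9792 and 5873 for MET_FLOX and 9416, 7337, 10586 and 6847 for MET_KO. On the drug it read 4273, 5402, 5141 and 4910 for MET_FLOX_canertinib and 6452, 5157, 6679 and 2802 for MET_KO_canertinib. The 2 diets overlapped through MET_FLOX day 14, at 5873, below the MET_KO_canertinib readings of days 0 and 7. The 2 array sets did not overlap, with 7337 to 10586 in the first and 2802 to 6847 in the second. On day 14, in the shared set, the flox arms read 5873 without canertinib and 4910 with it, and the knockout arms 6847 and 2802. The log2 difference was -0.74 (SE 0.14, adjusted p = 0.0037, limma), below 0 on 4 of 4 days, between -0.89 and -0.50. It kept its call with each of the 16 arrays left out in turn, with adjusted p-values up to 0.0101, and after median centring and quantile normalization; with a term for array set it was -0.77 (SE 0.28, adjusted p = 0.27).

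In the main fit F13b was also the 1 member called in the single-arm comparisons. It was lower in MET_FLOX_canertinib than in MET_FLOX (-0.73, adjusted p = 0.0451, limma), where 2.67% of all genes were called lower. It was lower in MET_KO_canertinib than in MET_KO (-0.75, adjusted p = 0.0395, limma), where 2.39% were. Both were lost without 12 and 8 of the 16 arrays in turn, with adjusted p-values up to 0.14 and 0.11; the arrays of the arms compared gave the highest, among them MET_FLOX_canertinib day 0 (-0.57) for the first and MET_KO_canertinib day 2 (-0.78) for the second.

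The other 6 factors were not called between diets in the main fit of arm and day. Scaling changed this: F7 and F10 were called lower under median centring, where 4117 of all 13577 genes were. F5 and F9 were called higher after quantile normalization, where 1682 of all genes were. F2, prothrombin, ranged from 16588 to 40705 and had a log2 difference of 0.40 with an adjusted p of 0.082 in limma's fit. F5, the cofactor of factor X, ranged from 6145 to 11774. Its log2 difference was 0.18, while a second F5 probe set, with r of 0.08 to the first, gave -0.14. F7, the partner of tissue factor, ranged from 2310 to 4951, and F10 from 6480 to 12077. F8 and F9, whose loss causes haemophilia A and B, ranged from 368 to 712 and from 5911 to 9764. F9 had the narrowest range of the 36 genes, 0.72 on the log2 scale.

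In the contact system no gene was called between diets over all 16 arrays in the main fit. Under median centring Klkb1 and F12 were called lower, where 4117 of all 13577 genes were. Klkb1, plasma prekallikrein, had the widest range of all 36 genes, 4.44 on the log2 scale. Klkb1 read 9524, 4199, 5153 and 3779 for MET_FLOX and 6966, 3725, 5289 and 3666 for MET_KO. In the canertinib arms the readings were 2694, 3489, 3226 and 5344 for MET_FLOX_canertinib and 4190, 3659, 5206 and 422 for MET_KO_canertinib. The day 0 readings without canertinib were the highest, and MET_KO_canertinib on day 14 was the lowest, with 2694 in the next lowest array. Kng1, the kininogen that prekallikrein cuts, went the other way there: it read 22270, 24992, 41987 and 39608 for MET_FLOX_canertinib and 16288, 27494, 20100 and 60948 for MET_KO_canertinib. F11 ranged from 1011 to 2285 and F12 from 4530 to 8765, with no call in any comparison of the main fits. Klkb1 was called lower with canertinib on days 0, 2 and 7 alone (-0.59, adjusted p = 0.0236, limma) and without MET_FLOX_canertinib day 14 (-1.04, adjusted p = 0.0222, limma), against -0.76 over all arrays. Kng1 was called higher without MET_KO_canertinib day 7 (0.67, adjusted p = 0.0460, limma), against 0.53. The second Kng1 probe set, which followed the first with r of 0.51, gave -0.10 between diets.

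Among inhibitors and anticoagulants, Serpind1, heparin cofactor II, was lower with canertinib. It read 11392, 8512, 11746 and 8938 for MET_FLOX and 14267, 9258, 13618 and 8889 for MET_KO. Its readings under canertinib were 9095, 7613, 8490 and 8522 for MET_FLOX_canertinib and 8951, 7916, 10506 and 3119 for MET_KO_canertinib. The diets overlapped from 8512 to 10506, and MET_KO_canertinib on day 14 was the lowest. The log2 difference was -0.47 (SE 0.17, adjusted p = 0.0433, limma), below 0 on 4 of 4 days. The call was lost without 12 of the 16 arrays in turn, the exceptions being MET_FLOX_canertinib day 14 and MET_KO_canertinib days 2, 7 and 14, with differences between -0.57 and -0.31 and adjusted p-values up to 0.095. It was lost also under quantile normalization (-0.21), with no variance trend and with no term for day (adjusted p = 0.057 and 0.095).

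Serpinc1, antithrombin, ranged from 20428 in MET_KO on day 2 to 55832 in MET_FLOX_canertinib on day 2, and its log2 difference of 0.38 had an adjusted p of 0.11 (limma). Proc, protein C, ranged from 5062 to 14132, and Serping1, the C1 inhibitor, from 13490 to 30588. Pros1, the protein S cofactor of protein C, had its highest reading in MET_KO_canertinib on day 14, 3762, and its lowest in the same arm on day 0, 812. None of these 4 was called between diets over all days. Pros1 averaged opposite values there: its log2 difference was -0.45 on days 0, 2 and 7 (adjusted p = 0.0223, limma) and 1.02 on day 14.

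In fibrinolysis Plg, plasminogen, was higher with canertinib, and Serpinf2, which blocks plasmin, was not called. Plg read 27460, 25064, 43412 and 35902 for MET_FLOX and 36914, 18790, 38686 and 44260 for MET_KO. The canertinib arms read 53593, 61009, 60031 and 58606 for MET_FLOX_canertinib and 34522, 54318, 49190 and 48065 for MET_KO_canertinib. All arrays of MET_FLOX_canertinib lay above all 8 arrays without the drug, while MET_KO_canertinib on day 0, at 34522, lay inside their range. The log2 difference was 0.67 (SE 0.19, adjusted p = 0.0182, limma), above 0 on 4 of 4 days, and was called with each array left out in turn, with adjusted p-values up to 0.0462. After median centring it was 0.29 and after quantile normalization 0.26, neither called. Serpinf2 ranged from 11083 to 31157, with a log2 difference of 0.29 (SE 0.18).

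C2 and Masp2, both proteases that start the complement cascade, were called in opposite directions, and both calls depended on the probe set. C2 read 2488, 2592, 2930 and 5962 for MET_FLOX and 2774, 2355, 3515 and 6069 for MET_KO, and with canertinib 5465, 4059, 5557 and 8292 for MET_FLOX_canertinib and 5274, 5900, 6527 and 2841 for MET_KO_canertinib. Up to day 7, all canertinib arrays lay above all arrays without it; on day 14 the arms without canertinib read 5962 and 6069 and MET_KO_canertinib 2841. The log2 difference was 0.65 (SE 0.23, adjusted p = 0.0385, limma), above 0 on 3 of 4 days. Without the MET_KO_canertinib day 14 array it was 0.91 (adjusted p = 0.00096); the call was lost without 13 of the 16 arrays in turn, all but those of day 14 in MET_FLOX, MET_KO and MET_KO_canertinib, with values from 0.53 and adjusted p-values up to 0.092. With the second brightest probe set the difference was -0.09, with the third, which followed the first with r of 0.61, it was 0.39, and on day 14 alone the first gave -0.31; median centring (0.27), no variance trend and no term for day (adjusted p = 0.057 and 0.052) also ended the call. The C2 probe set used is of a kind, marked x_at by the manufacturer, that can bind related transcripts.

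Masp2 read 3219, 2271, 3215 and 2226 for MET_FLOX and 2003, 2356, 3150 and 2388 for MET_KO, and with canertinib 1926, 2274, 1800 and 1828 for MET_FLOX_canertinib and 1887, 2235, 1859 and 1002 for MET_KO_canertinib. MET_KO_canertinib on day 14 was the lowest, and the diets overlapped between 2003 and 2274. The log2 difference was -0.50 (SE 0.15, adjusted p = 0.0199, limma), below 0 on 4 of 4 days, and remained called with each array left out, though not under quantile normalization (-0.33). The second Masp2 probe set gave 0.35 and did not follow the first over the arrays, with r of -0.01.

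The mannose-binding lectins Mbl1 and Mbl2 and the protease Masp1 that circulates with them were not called between diets in the main fit. Under median centring Mbl2 and Masp1 were called lower, where 4117 of all 13577 genes were. Mbl2 read 24504, 12834, 22552 and 12468 for MET_FLOX and 16426, 11812, 17167 and 13618 for MET_KO. Under canertinib the signal was 12580, 16304, 21204 and 18318 for MET_FLOX_canertinib and 14067, 11431, 10079 and 2436 for MET_KO_canertinib. Mbl1 ranged from 4774 to 9022, with no such low reading on day 14, where MET_KO_canertinib read 5812. Masp1 ranged from 2008 to 4792. Of the alternative arm, factor B (Cfb) ranged from 9044 in MET_KO on day 2 to 18838 in MET_FLOX_canertinib on day 7, with a log2 difference between diets of 0.02 (SE 0.14); its 16 readings were 15920, 11815, 18738 and 17260 for MET_FLOX and 11951, 9044, 17809 and 14464 for MET_KO, and 13664, 13497, 18838 and 13805 for MET_FLOX_canertinib and 14286, 14757, 12941 and 14785 for MET_KO_canertinib with canertinib.

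Of the regulators, Vtn, vitronectin, which keeps the terminal pore from inserting, showed the largest difference between diets among the members called higher. It read 37595, 27277, 44242 and 50210 for MET_FLOX and 35850, 18437, 37614 and 51264 for MET_KO. On the canertinib diet it read 66420, 76856, 76367 and 71634 for MET_FLOX_canertinib and 43148, 69698, 62229 and 67662 for MET_KO_canertinib. The lowest 2 readings were the day 2 arrays without canertinib, and MET_KO_canertinib on day 0 overlapped the arms without it. The log2 difference was 0.87 (SE 0.20, adjusted p = 0.0077, limma), a 1.82-fold difference, above 0 on 4 of 4 days and 1.71 on day 2. The call was kept with each array left out and under median centring and quantile normalization; the second Vtn probe set gave 0.44 (adjusted p = 0.082). Cfi, the protease that cuts C3b, ranged from 15089 to 32773, and C4bp, its cofactor, from 9816 to 23595; neither was called.

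The terminal components Hc (C5), C6, C8a, C8b, C8g and C9 build the pore. In the main fit 0 of 6 were called between diets over all arrays, with a median log2 difference of -0.26. Under median centring Hc, C6, C8b and C8g were called lower, where 4117 of all 13577 genes were. Without MET_KO_canertinib day 14 C9 was called higher (0.45 against 0.16, adjusted p = 0.04996, limma), and without MET_FLOX_canertinib day 14 C8b was called lower (-0.61 against -0.45, adjusted p = 0.0346, limma). C9, which had the widest range of them, read 16547, 19624, 27368 and 30409 for MET_FLOX and 19150, 16060, 26403 and 29499 for MET_KO. Canertinib-fed arms read 27121, 42651, 35016 and 39989 for MET_FLOX_canertinib and 13518, 32225, 32855 and 6642 for MET_KO_canertinib. MET_FLOX_canertinib read above both arms without the drug on each day, and MET_KO_canertinib on day 14 was the lowest of all 16. C8b read 5940, 4048, 5936 and 4494 for MET_FLOX and 6256, 3752, 6330 and 4585 for MET_KO, and with canertinib 3172, 3732, 3481 and 5114 for MET_FLOX_canertinib and 3660, 4377, 7121 and 1500 for MET_KO_canertinib. Hc, C8a, C6 and C8g were each at their lowest in the same array, at 8005, 7159, 1689 and 5812.

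**Figure D4:**
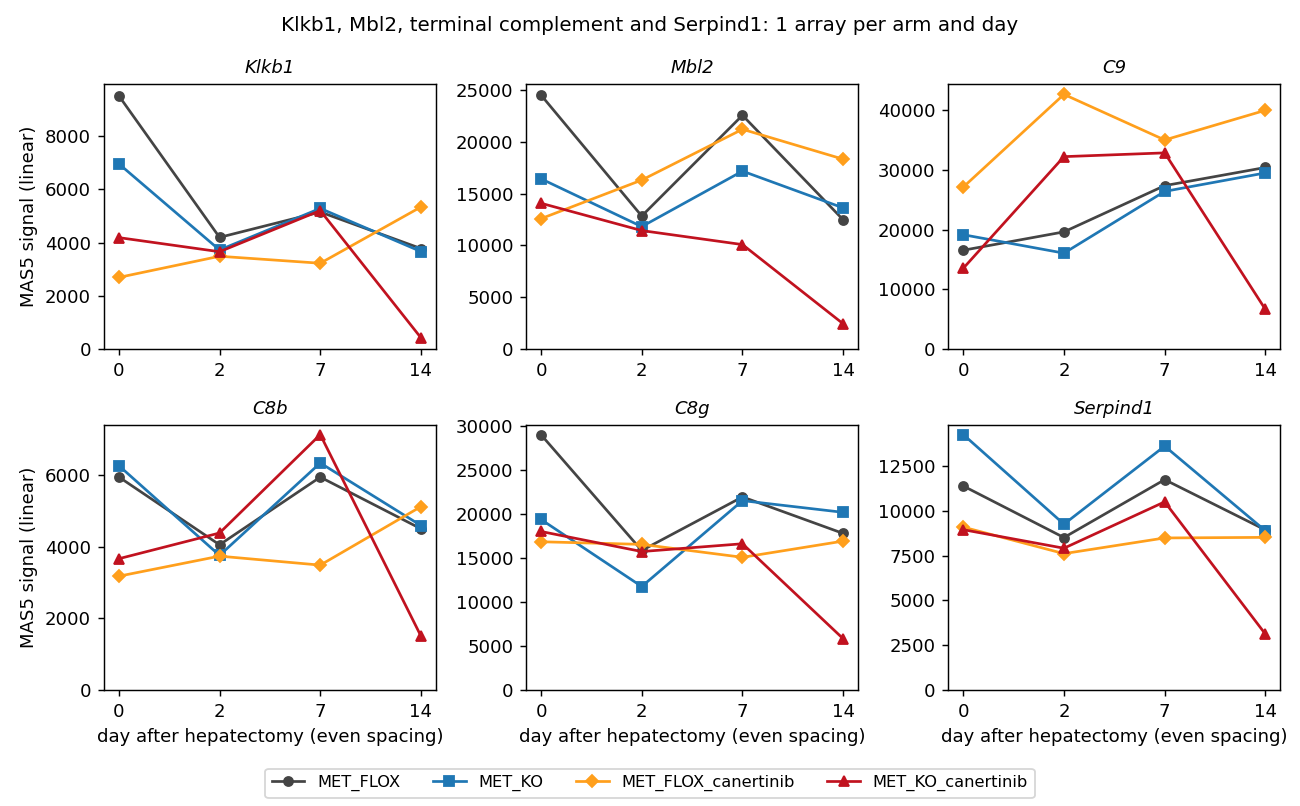
Signal (linear, MAS5) of Klkb1, Mbl2, C9, C8b, C8g and Serpind1 on days 0, 2, 7 and 14, 1 array per arm and day, with no error bars. In each panel the MET_KO_canertinib array of day 14 (red triangle) lies below all 15 other arrays, at 422 for Klkb1 and 2436 for Mbl2.

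The MET_KO_canertinib day 14 array was set against what its arm and its day gave elsewhere, with a term for that array in the fit of all genes. This comparison was chosen after the values were seen, as were Kng1, Pros1, Mbl2, C8b and C8g for their readings in single arrays; it describes 1 array, assumed to vary like the others, and has no replicate. Of the 36 genes, 7 were called lower, where 1.98% of all genes were, and 1 was called higher, where 0.626% were. The share called among the 259 bright genes was not counted. Of these, 35.5% had their lowest signal in this array, against 11.7% of all genes. The departures were -3.18 for Klkb1 (SE 0.52, adjusted p = 0.0053), -2.31 for C9 (SE 0.42, adjusted p = 0.0111), -2.07 for Mbl2 (SE 0.43, adjusted p = 0.0200) and -2.04 for C2 (SE 0.27, adjusted p = 0.0011), on the log2 scale in limma's fit. For Klkb1 that is 9.08-fold lower. C8b departed by -1.73 (adjusted p = 0.0391, limma), C8g by -1.54 (adjusted p = 0.0396, limma) and Serpind1 by -1.32 (adjusted p = 0.0204, limma), and Pros1 by 1.71 (adjusted p = 0.0357, limma). The fibrinogen chains, each at its highest there, departed by 0.51 to 0.70 and were not called. The rest of the terminal group read C6 -1.26, C8a -0.87 and Hc -0.66, also not called.

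Within day 14 alone, where the 4 arrays share a set, 19 of the 36 genes were lower in MET_KO_canertinib than in each other arm and 8 were higher. Among all genes these shares were 30.3% and 31.7%, and among the 259 bright genes 57.1% and 23.9%. On the same day 22 of the 36 genes were higher in MET_FLOX_canertinib than in each other arm, against 26.2% of all genes and 35.1% of the bright ones. Low readings in this array were common among brightly expressed genes. After a term for array set was added, 5 of the 36 genes were called lower, Klkb1, Mbl2, C8b, C2 and Serpind1, against 1.14% of all genes. With each other array left out in turn, Klkb1, C9 and C2 kept their calls. Mbl2 lost its call without MET_KO day 14 (adjusted p = 0.054) and Serpind1 without MET_KO_canertinib day 7 (adjusted p = 0.058), while C8b, C8g and Pros1 lost theirs without 8, 8 and 7 of the 15 arrays, with adjusted p-values up to 0.097, 0.11 and 0.0995. The second C2 probe set gave -0.41, with no call.

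**Figure D5:**
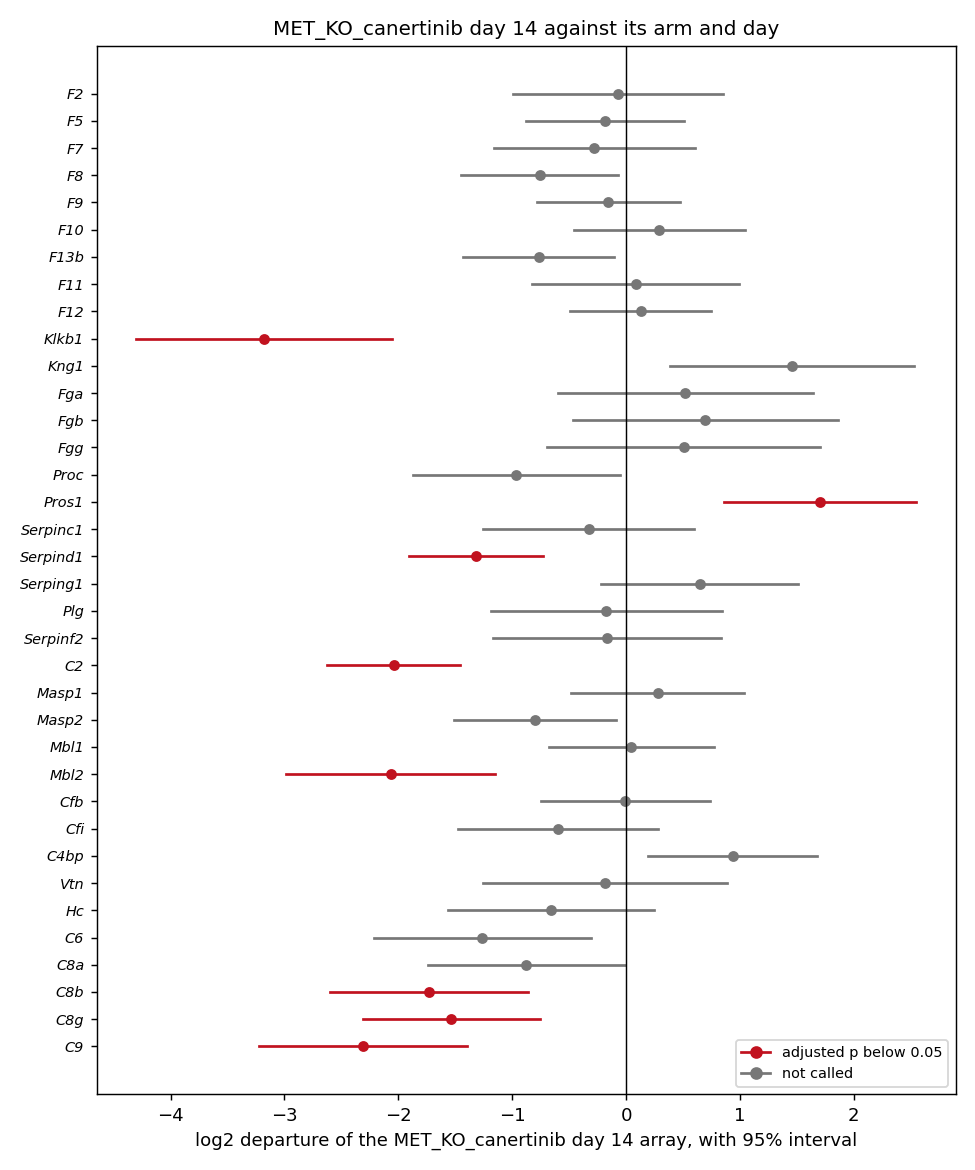
Departure of the MET_KO_canertinib day 14 array from the level given by its arm and its day, on the log2 scale with 95% intervals, for the 36 genes; red marks an adjusted p below 0.05. Klkb1 lies farthest below 0, at -3.18, and Pros1 is the 1 red gene above 0, at 1.71.

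Other markers stood apart in that array as well. The summed signal of 5 neutrophil markers was 43428, against 1610 to 11927 in the other 15 arrays, and S100a8 read 22731, against 188 to 4349; 0 of the 5 departures were called (S100a8 adjusted p = 0.11, limma). The sums of liver endothelium (8914), platelet (4120) and stellate cell (15442) markers were also the highest of 16, against up to 8456, 3954 and 13210. The 11 acute phase genes summed to 679486, against 144930 to 577695, with 0 of 11 departures called. Saa1, Saa2, Saa3, Orm1, Lcn2, Apcs and Itih4 were at their highest of 16, Orm2, Hp and Hpx were not, and Crp, at 6234, was at its lowest. The summed hepatocyte markers were inside their range, at 319379 against 118861 to 444997. Single markers were not all so: Cps1, at 18122, was at its lowest of 16 and Tat, at 41243, at its highest. None of the 6 departures of hepatocyte markers was called. Of 10 hepatocyte transcription factors, Cebpa (5878), Foxa1 (401) and Foxa2 (698) were at their lowest of 16, and Cebpb (8954) and Stat3 (8235) at their highest; 0 of the 10 departures were called. Those of Cebpa, Foxa2, Cebpb and Stat3 were -1.40, -1.55, 1.21 and 0.85 (adjusted p = 0.087, 0.057, 0.29 and 0.42, limma). Thbd, the thrombomodulin of vessel walls that starts the protein C pathway, was called higher by 2.99 (SE 0.72, adjusted p = 0.0427, limma). The part of these in the members' departures was not tested.

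The days were compared next, and no member passed the test between days in the main fits. From day 0 to day 2 without canertinib, 34 of the 36 genes had a log2 difference below 0, with a median of -0.60, against -0.12 for all genes. The unadjusted p was below 0.05 for 13 of them and 0 passed the adjusted threshold in limma's fit, where 1.08% of all genes did. Both arms were lower on day 2 for 28 of the 36 genes, against 40% of all genes and 71.4% of the bright ones. The same 28 were also lower on day 2 than on day 7 in both arms, against 24.2% of all genes and 67.2% of the bright ones. The exceptions were C2, C4bp, C6, C8a, C9, Masp2, Mbl1 and Pros1. Serping1 had a difference of -0.81 (SE 0.26), F10 of -0.69 (SE 0.19), F2 of -0.75 (SE 0.26) and Serpinc1 of -0.73 (SE 0.25), each below 0 in 2 of 2 arms.

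By role, the median difference of day 2 from day 0 without canertinib was -0.77 for fibrinogen, -0.73 for inhibitors, -0.69 for the contact system, -0.67 for complement regulators, -0.63 for fibrinolysis, -0.49 for procoagulant factors, -0.42 for Cfb, -0.25 for terminal complement and -0.13 for the genes that start complement. Pros1 read higher on day 2 in both arms, by 0.46 on average. The other 9 secreted hepatocyte proteins were all below 0 too, with a median of -0.68, and the 6 hepatocyte markers had a median of -0.67. On day 2 the summed hepatocyte markers read 118861 in MET_KO and 175421 in MET_FLOX, against 216617 to 247939 on days 0 and 7 in those arms. The highest signal of any probe set was also lowest in the MET_KO day 2 array, at 30258. Their part in the result was not tested. When either day 14 array of the canertinib arms was left out, Klkb1 (-1.04, adjusted p = 0.0271 or 0.0279) and Serping1 (-0.81, adjusted p = 0.0406 or 0.0411) were called in limma's fit.

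In the canertinib arms the day 2 differences had the other sign for most members. Of the 36 genes, 29 were above 0, with a median of 0.24, against 0.02 for all genes; 0 were called and 0 had an unadjusted p below 0.05, where 0.00737% of all genes were called. Both arms read higher on day 2 for 15 of the 36, against 29.7% of all genes and 43.6% of the bright ones. The difference between the diets in the step from day 0 to day 2 was above 0 for 35 of the 36 genes, with a median of 0.72 against 0.11 for all genes. It was not called for any member or for any other gene (0% of all genes), with an unadjusted p below 0.05 for 12 members, among them Cfi (1.03, SE 0.36) and Serpinc1 (1.01, SE 0.35).

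On day 7 the members lay mostly above day 0, and no member was called. The median difference from day 0 was 0.12 without canertinib, where 0.0147% of all genes were called, and 0.23 with it, where 0.0737% were. On day 14 it was -0.10 without canertinib, where 4.82% of all genes were called but day and array set cannot be told apart, and 0.17 with it, where 0.324% were. Without the MET_FLOX_canertinib day 14 array, MET_KO_canertinib is left alone on that day. The difference between days 14 and 0 with canertinib was then -3.18 for Klkb1 and 1.95 for Pros1, and rests on that 1 array. Without canertinib, C2 (1.19) and Klkb1 (-1.13) were called between days 14 and 0 when either canertinib array of day 14 was left out. Over all 4 arms, 0 of the 36 genes were called on days 2, 7 or 14 against day 0, where 0.383%, 0.00737% and 0.081% of all genes were; without MET_KO_canertinib day 14, C2 was called on day 14 (1.03, adjusted p = 0.0442, limma).

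Loss of Met was not followed by a called difference in any member. Over both diets the knockout arms read below the flox arms for 31 of the 36 genes, with a median log2 difference of -0.14 against -0.01 for all genes. The call count was 0 for the members and 0% for all genes in limma's fit; 1 member and 322 genes had an unadjusted p below 0.05. That member was Mbl2, with -0.66 (SE 0.26), below 0 on 4 of 4 days, between -1.39 on day 14 and -0.21. C9 followed with -0.53 (SE 0.28), also below 0 on 4 of 4 days. Both leaned on MET_KO_canertinib day 14: without that array they were -0.40 (SE 0.17) and -0.24 (SE 0.17). The hepatocyte markers had a median of -0.37 in the same comparison, with 6 of 6 below 0.

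Without canertinib, MET_KO against MET_FLOX gave 0 calls among the members and 0% of all genes; under canertinib, MET_KO_canertinib against MET_FLOX_canertinib gave 0 members, with 0.00737% of all genes. The interaction of genotype and canertinib was below 0 for 29 of the 36 genes, with a median of -0.18. It was called for 0 of them and for 0.0147% of all genes. F5 (-0.58, SE 0.25) and C8a (-0.79, SE 0.36) had an unadjusted p below 0.05. The F5 value is of 1 probe set, which its second did not follow (r of 0.08). Combined blockade, MET_KO_canertinib against MET_FLOX, gave 0 called members, where 2.88% of all genes were. Without MET_KO_canertinib day 14 C2 was called there (1.10, adjusted p = 0.0170, limma), and without MET_FLOX_canertinib day 14 F13b (-0.70, adjusted p = 0.0385, limma). Some members were also called there under median centring, a fit whose share of all genes called is not given, so this is no result about the members.

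The neighbouring genes of the pathways were taken from lists that were, like the members, chosen with results of these data known, and their counts stand against the 24% of all genes called higher and the 10.6% called lower between diets. Between diets, 1 of 7 genes of the vitamin K cycle and factor export was called higher (Vkorc1l1, 0.46) and 1 lower; the latter was Ggcx, the carboxylase that activates several clotting factors, at -0.57 (SE 0.14). Ggcx read 1422, 1046, 1202 and 1305 for MET_FLOX and 1420, 1102, 1404 and 1438 for MET_KO, and with canertinib 882, 956, 796 and 653 for MET_FLOX_canertinib and 1245, 878, 1116 and 556 for MET_KO_canertinib, lowest in MET_KO_canertinib on day 14. Of 5 vessel wall genes measured, F13a1 (0.81) and the thrombin receptor F2rl2 (0.64) were higher. In fibrinolysis outside the members, 3 of 7 were higher and 0 lower: Plat, the tissue plasminogen activator, at 1.05, A2m at 0.97 and Plaur, the urokinase receptor, at 0.57. A2m read 70 and 81.5 on day 2 without canertinib, below the medians of those arrays. On day 14, in the shared array set, Plat read 239 and 202 without canertinib and 427 and 498 with it. Both readings without the drug lay below their arrays' medians of 245.8 and 246.3. So did the Plat readings of day 0 in MET_FLOX and MET_KO and of day 7 in MET_KO. The diets overlapped on day 14 for F2rl2 (820 and 1012 against 1119 and 831) and Plaur (745 and 764 against 560 and 1334).

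Of 11 further complement components, 1 was higher with canertinib and 3 lower. The lower ones were the C1 proteases C1s1 (-0.83, SE 0.12) and C1ra (-0.70, SE 0.17) and properdin, Cfp (-1.22, SE 0.45); the higher was Fcnb (0.84), a ficolin. C1s1 read 10790, 6970, 10299 and 6614 for MET_FLOX and 10099, 7705, 11531 and 6293 for MET_KO, and 5236, 4673, 5812 and 4837 for MET_FLOX_canertinib and 5900, 4056, 4148 and 4202 for MET_KO_canertinib with canertinib, so that the diets did not overlap. The array sets did not overlap either, with 6970 to 11531 in the first and 4056 to 6614 in the second. Of 8 complement receptors and membrane regulators, Cd46 (0.86) and the C5a receptor C5ar1 (0.80) were higher, a share near that of all genes. Some of their low readings lay below the array's median. These were Cd46 in MET_FLOX on day 7 (86.1 against 174.7) and C5ar1 in MET_KO on day 0 (143.6 against 176.8) and MET_FLOX on day 2 (146.7 against 168.8). On day 14 the diets overlapped for C5ar1 (554 and 407 against 466 and 472), for Cd46 (546 and 556 against 481 and 667) and for Fcnb (853 and 900 against 790 and 1018). They overlapped that day also for C1ra (4678 and 4221 against 3627 and 4688) and Cfp (2385 and 691 against 388 and 2061). From day 0 to day 2 without canertinib, Colec10, a collectin that can start the lectin arm, was called lower by 1.83 on the log2 scale, with 11 of the 11 components below 0. Hgfac, the activator of hepatocyte growth factor, and A2m were also lower there, at -1.58 and -1.79. The A2m readings of day 2, 70 in MET_FLOX and 81.5 in MET_KO, lay below their arrays' medians of 168.8 and 156.4.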

How the data were processed

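RNA of 16 livers or liver pools was hybridised to Affymetrix Mouse 430 2.0 arrays, with total RNA extracted by Trizol, per the labels' protocols. The deposited values are MAS5 signal intensities on a linear scale, per the submitters' processing notes, with no version given; in each array their mean, trimmed by 2% at each end, was 500. Of 45101 probe sets, 64 controls were left out and 34945 named 1 gene; 932 named several genes and 9160 none. A probe set had to exceed its array's median in 4 arrays, which kept 22317 probe sets and 13577 genes. Values were tested as log2(signal + 16) with limma 3.58.1 in R 4.3.3 (moderated, with a variance trend), with arm and day as terms (9 residual degrees of freedom) or with day within diet (6), and Benjamini-Hochberg adjustment over all genes at 0.05. Fold changes are on the log2(signal + 16) scale, which understates those of low signals. The number of arrays limits the precision. The fits were tested on simulated data.

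Members and lists were chosen with earlier results of these data known. Per group, members called in any comparison (at most 4) and otherwise the member of widest range are given in all arrays; other lists give up to 4 called genes with the smallest p. The departure of 1 array and the counts of lowest and highest readings were chosen after the data were seen. Alternatives were the pseudocount, the filter, scaling, the probe set rule, the array set, the variance trend, the day term and each array left out.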

Additional observations from a re-analysis of the deposited data

How the results depend on the processing

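Pseudocounts of 1 and 64 left 9 members called between diets. That count was 14 with each array centred on its median, where 936 of all 13577 genes were called higher and 4117 lower. It was 5 when quantile-normalized (1682 and 1208 of all genes). It was 0 on day 14 alone or after a term for array set was added (4 and 11 of all genes in the latter). With 1 array left out it ranged from 4 to 10. For MET_KO_canertinib against MET_FLOX, the count rose from 0 under centring and ranged from 0 to 1 with 1 array left out. For MET_FLOX_canertinib against MET_FLOX, 1 became 0 with no filter, with the array set, with no variance trend or with no day term. The count rose with all 16 arrays required above their median and under centring, and ranged from 0 to 4 with 1 array left out. For MET_KO_canertinib against MET_KO, 1 became 0 after quantile normalization, with the array set, with no variance trend or with no day term. It rose under centring, and ranged from 0 to 2 with 1 array left out. Between days 14 and 0 without canertinib, the count rose from 0 under centring. Leaving out 1 array gave 0 to 2 without canertinib and 0 to 1 over all arms, and 0 to 2 between days 2 and 0 without canertinib. With canertinib no count is given for the fits that leave 1 array on day 14, and the others gave 0. Where the share of all genes called in a fit is not given, the counts describe the fit and not the members. The departure of the MET_KO_canertinib day 14 array was called for 8 members, for 3 under centring or with no variance trend, for 5 with the array set, and for 4 to 8 with 1 other array left out. Signs turned for Fga after quantile normalization (-0.078), for C2 with the array set or on day 14 alone (-0.31) and with its second probe set (-0.087), and for Masp2 with its second probe set (0.35). The cause was not tested. The array set could not be fitted with day within diet. No paired analysis was possible because each arm has 1 array per day and the replicate number pairs nothing.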

Other observations

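Over the 16 arrays the members' log2 signals ran together in more than one group, given here as a description, since all values share the same arrays and their scaling. Beyond the fibrinogen chains, Plg was most like Vtn (Pearson's r of 0.96). F2, prothrombin, was most like Fgg (0.91) and then Serpinc1 (0.91), the antithrombin that blocks its active form. Klkb1 was most like Serpind1 (0.92), C8b (0.91) and C8g (0.91), which share its low reading in MET_KO_canertinib on day 14. F13b was most like Serpind1 (0.87), and Hc most like C8a (0.88). C9 had no such close partner, with 0.70 to C8a.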
